A study of Mus musculus with 4 samples.

Results

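The genes described here are the Wnt ligands, their Frizzled, Lrp and Lgr receptors, the secreted Wnt inhibitors, the R-spondins and a few nuclear and feedback factors of the same pathway. They were taken by gene symbol, whatever their level, from the annotation of the Affymetrix mouse genome array, which reads each transcript in one colour through 1 or more probe sets. The symbols matched 106 probe sets naming 54 genes, of 18193 genes that the array names alone with a probe set. Of the symbols sought, Tcf7 is not analysed here. The 54 comprise 19 Wnt ligands, 12 Frizzled and Lrp receptors, 11 secreted inhibitors, 7 R-spondin and Lgr genes, and 4 nuclear or feedback factors. The symbol search also took in Fzd10os, an antisense RNA of Fzd10 that is no receptor.

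RNA came from bronchoalveolar stem cells (BASCs), a progenitor population named for the junction of bronchioles and alveoli, and the series compared BASCs depleted of c-Myc with control BASCs on 2 arrays each. The study depleted c-Myc in BASCs with lentivirus carrying short hairpin RNA, and selected stable lines with puromycin over several generations. Whether the cells on the Myc-depleted arrays were such lines is not stated. The control arrays hold BASCs that the labels call control and the study calls wild type. Both came from lungs of ICR mice aged 4 to 6 weeks, sorted for CD34 and Sca-1 and against CD31 and CD45, and plated over irradiated embryonic fibroblasts. For later passages the study names both such feeders and collagen-coated dishes, and which of these the arrayed cells grew on is not given. Which hairpin was used, and whether the controls received a virus or puromycin, is not given for the arrays in the sources used here, so infection and selection cannot be told apart from depletion. Nothing in the labels ties the arrays of a group to separate cultures, and the p-values therefore reflect array-to-array spread that may be technical only. Each level is the log2 value of 1 probe set, and differences are Myc-depleted minus control.

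Wnt proteins are secreted lipid-modified ligands that bind Frizzled receptors together with a co-receptor. With Lrp5 or Lrp6 as co-receptor they stabilise beta-catenin, which acts with Lef and Tcf factors in the nucleus and switches on feedback genes such as Axin2 and Nkd1. With Ror or other partners they act on cell shape and movement instead. R-spondins, bound to Lgr receptors, keep Frizzled proteins at the surface, while Sfrp, Wif and Dkk proteins hold Wnt ligands or co-receptors back. In the lung, Wnt signals from the mesenchyme act on epithelial progenitors in development and repair.

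Some facts of the arrays bear on each value below. Myc itself, read by 1 probe set, stood at 8.35 and 8.50 in Myc-depleted BASCs, against 9.21 and 9.69 in control BASCs. The poly-A spike-ins, bacterial RNAs added before labelling, differed between arrays in their 3′ minus 5′ value, which was 3.67 and 1.50 on Myc-depleted arrays 1 and 2 and 1.62 and 3.01 on control arrays 1 and 2. Over the tested probe sets Myc-depleted 1 correlated with control 2 at 0.983 and with Myc-depleted 2 at 0.967. Myc-depleted 2 correlated with control 1 at 0.984, and the 2 controls with each other at 0.986. Of the genes used for the sort, Pecam1 (CD31) and Ptprc (CD45) lay under log2 5.08, the threshold used here for low values, on every array, and so did Cd34, for which the cells were selected, at 3.97 or less. Sca-1 is not analysed here. Of 19 markers of lung epithelium 11 averaged under the threshold, among them Sftpc, Scgb1a1, Nkx2-1 and Cdh1, and 8 above it. Epcam, one of the 8, read 7.80 and 7.52 in Myc-depleted BASCs, against 6.89 and 7.12 in control BASCs, and 7 of the 8 had a positive difference. Of 17 mesenchymal markers 15 lay above it, with a mean level of 9.88 to 10.02 on the Myc-depleted arrays and 9.98 to 10.07 on the control arrays. That mean covers differences of both signs, with an unadjusted p under 0.05 in limma for 5 of the 15 (33.3%, against 12.2% of all genes tested). They were Pdgfra (1.23), Dcn (0.67), Pdgfrb (0.44), Tagln (-0.99) and Thy1 (-1.26), of which Thy1 lay under the threshold on both Myc-depleted arrays. The epithelial list averaged 5.35 to 5.36 on the Myc-depleted arrays and 5.17 to 5.27 on the control arrays, the endothelial list 4.48 to 4.52 on the Myc-depleted arrays and 4.37 to 4.44 on the control arrays, and the list of blood cell markers 5.70 to 5.95 on the Myc-depleted arrays and 5.69 to 5.74 on the control arrays. The part of these marker levels in the results was not tested, and in such bulk RNA fewer cells of a type cannot be told apart from less RNA per cell.

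Because c-Myc with its partner Max binds the E-box CACGTG, and Lef and Tcf factors bind CTTTGAT, both motifs were sought on either strand of promoters from RefSeq (mouse build GRCm38.p6), each running from 250 bases before to 50 after a start. The promoters of a single chromosome were left out of all counts. Of the 54 genes 36 had an entry among the rest, with 42 promoters. CACGTG lay in 5 of these 42 (11.9%), and in 7.15% of all 32851 promoters of that length that were kept. CTTTGAT lay in 2 (4.76%), against 3.73% of all. The stretches that hold an E-box are shown because they name the genes of this pathway with a canonical site close to the start. CACGTG is in capitals, and each stretch runs 5′ to 3′ along the gene.

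Wif1: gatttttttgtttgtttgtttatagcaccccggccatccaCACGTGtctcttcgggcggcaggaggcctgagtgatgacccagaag
Fzd9: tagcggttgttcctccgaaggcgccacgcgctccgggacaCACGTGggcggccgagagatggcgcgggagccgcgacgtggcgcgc
Wnt9a: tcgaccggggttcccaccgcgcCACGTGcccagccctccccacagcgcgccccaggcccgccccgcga
Rspo4: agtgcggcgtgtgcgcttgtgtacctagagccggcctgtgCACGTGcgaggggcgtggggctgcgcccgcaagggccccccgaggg
Lef1: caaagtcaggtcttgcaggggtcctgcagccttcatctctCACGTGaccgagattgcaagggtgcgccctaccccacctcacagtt

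These stretches lie at chr10:121033754-121033839 on the plus strand for Wif1, where the motif begins 210 bases before the start, at chr5:135251090-135251175 on the minus strand for Fzd9 (88 bases before), at chr11:59306680-59306747 on the plus strand for Wnt9a (228 bases before), at chr2:151842779-151842864 on the plus strand for Rspo4 (108 bases before) and at chr3:131156175-131156260 on the plus strand for Lef1 (79 bases before one of its starts). The stretches with CTTTGAT, shown because they mark the ligand genes with a Lef and Tcf motif, carry it in capitals on either strand.

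Wnt5b: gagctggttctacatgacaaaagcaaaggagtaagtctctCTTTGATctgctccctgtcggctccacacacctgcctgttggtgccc
Wnt11: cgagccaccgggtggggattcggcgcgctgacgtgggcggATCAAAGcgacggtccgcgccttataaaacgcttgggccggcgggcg

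They lie at chr6:119449411-119449497 on the minus strand for Wnt5b, 71 bases before the start, and at chr7:98835021-98835107 on the plus strand for Wnt11, 51 bases before it. A match is a description of the letters and no evidence of binding. Apart from Wif1, whose values are given with the inhibitors, the genes of both sets differed little between the groups. Fzd9 differed by -0.06, Wnt9a by 0.21, Lef1 by 0.00 and Wnt11 by -0.03, with overlapping groups in each, and Rspo4 and Wnt5b stayed under the low-value threshold.

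To ask which of these genes differ with Myc depletion, limma was fitted to all 27022 probe sets with a mean level of at least log2 5.08, and each gene was read from its brightest tested probe set. This left 41 of the 54 genes; the other 13 are given at the end. None of the 41 passed a Benjamini-Hochberg adjusted p under 0.05 in limma, as 0 of all probe sets did (0%), with a smallest adjusted p of 0.263 among them. An unadjusted p under 0.05 was reached by 8, of which 6 were higher in Myc-depleted BASCs (14.6% of the 41, against 6.96% of the 12589 genes tested) and 2 lower (4.88%, against 5.23%). The groups did not overlap for 13 genes that were higher (31.7%, against 26.6% of all genes) and 7 that were lower (17.1%, against 20.8%). With a difference of at least 0.5 as well, 4 were higher (9.76%, against 5.13%) and 2 lower (4.88%, against 4.02%). The lower shares thus lay near those of all genes. The median difference was 0.10, against 0.02 over all genes tested. It was positive for 28 genes and negative for 13, against 6803 and 5786 of all genes. Setting one array of each group against another gave median differences of 0.06 to 0.12. The plain ANOVA of the study's methods put 8 of the 41 under an unadjusted p of 0.05 and 0 under an adjusted one. These were not all the same genes, as Lgr4 had an unadjusted p of 0.0736 in that ANOVA. The study's cut-off on fold change was not applied. Without control 1 the median difference was 0.06, and without control 2 it was 0.18. With the spike-in 3′ minus 5′ value as a covariate, a fit chosen after the data were seen that leaves 1 residual degree of freedom, 5 of the 41 passed the adjusted threshold (12.2%), as did 11.7% of all probe sets. These were Dkk3, Sfrp1, Fzd1, Fzd4 and Wnt5a. The share over all genes was not taken in that fit, so genes are set against probe sets there.

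**Figure D1:**
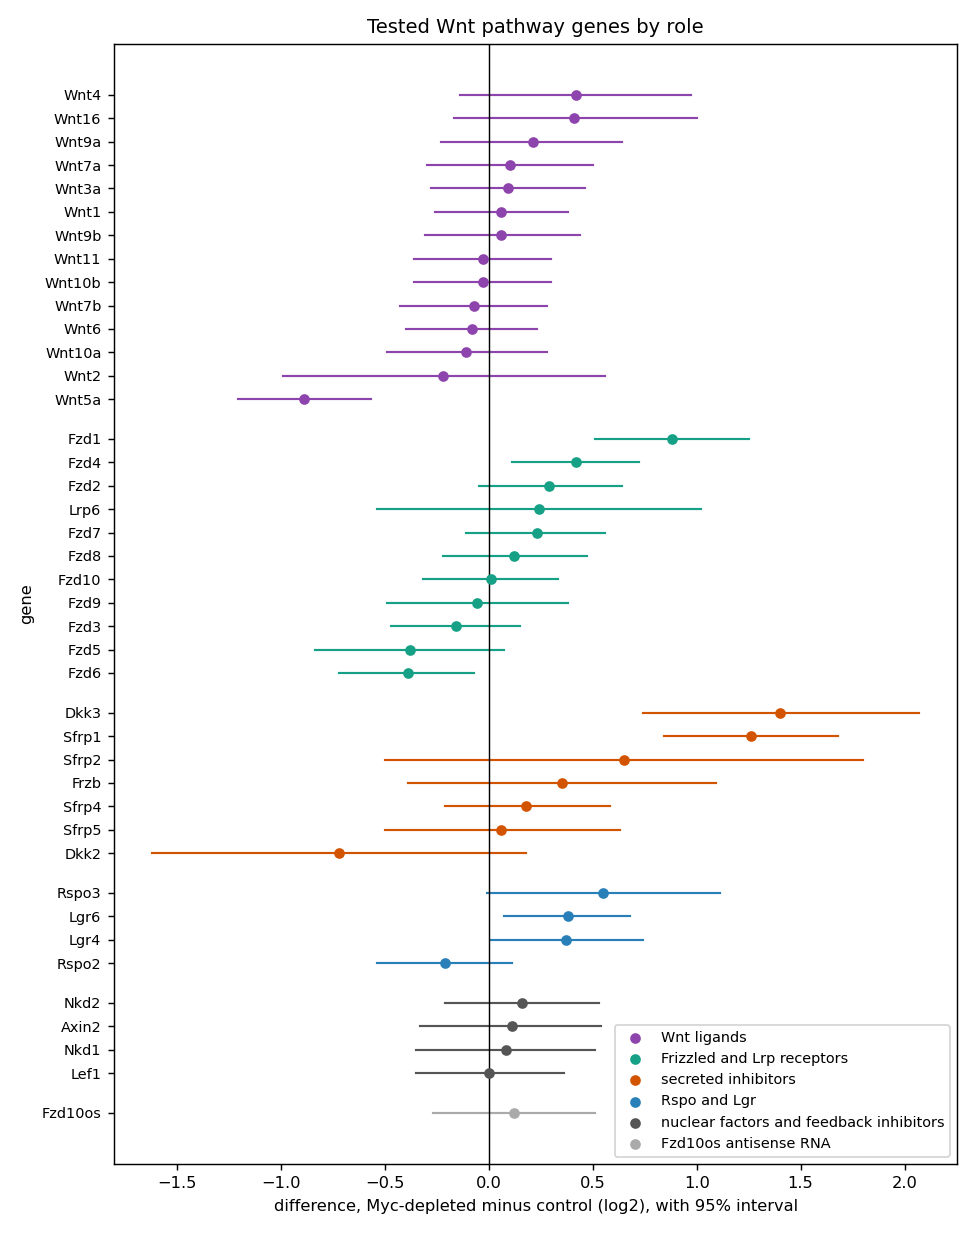
Difference between Myc-depleted and control BASCs (x axis, log2) for the 41 tested genes grouped by role, each point with its 95% limma interval. Secreted inhibitors spread from -0.72 for Dkk2 to 1.40 for Dkk3, Wnt5a lies apart from the other ligands at -0.89, and the nuclear and feedback factors lie between 0.00 and 0.16.

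Among the Wnt ligands only Wnt5a had an unadjusted p under 0.05 in limma, of 14 tested (7.14%, against 12.2% of all genes in either direction). Wnt5a is the ligand best known for signals that do not run through beta-catenin, and in the developing lung it shapes the distal airways. Its brightest probe set read 6.57 and 6.56 in Myc-depleted BASCs, against 7.51 and 7.40 in control BASCs. Both Myc-depleted arrays thus lay under both controls. The difference was -0.89 (SE 0.11, 95% interval -1.21 to -0.57), a 1.85-fold lower level, with an unadjusted p of 0.00149 and an adjusted p of 0.282 in limma. A second probe set read 5.69 and 5.91 in Myc-depleted BASCs and 6.85 and 6.82 in control BASCs, a difference of -1.04. A dimmer one differed by -0.29, at 5.23 and 5.08 in Myc-depleted and 5.22 and 5.69 in control BASCs, where the groups overlapped. The last one averaged under the threshold and differed by -0.21.

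The other 13 tested ligands differed by -0.22 to 0.42, and all of these lay within 2 log2 units of the low-value threshold. Wnt4, a ligand of kidney and gonad development that is also made in lung mesenchyme, read 5.78 and 5.45 in Myc-depleted BASCs, against 5.37 and 5.02 in control BASCs. Its second probe set differed by 0.25, and both had groups that did not overlap. Wnt16 read 5.63 and 5.12 in Myc-depleted BASCs and 4.99 and 4.94 in control BASCs, so that its control mean lay under the threshold. Wnt2, which with Wnt2b specifies the lung field in the embryo, read 4.93 and 5.39 in Myc-depleted BASCs and 5.66 and 5.10 in control BASCs, and its groups overlapped. Wnt3a and Wnt7b, ligands that act through beta-catenin, differed by 0.09 (95% interval -0.28 to 0.46) and -0.07 (-0.43 to 0.28). Wnt6 differed by -0.08 and the other 7 ligands by -0.11 to 0.21.

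**Figure D2:**
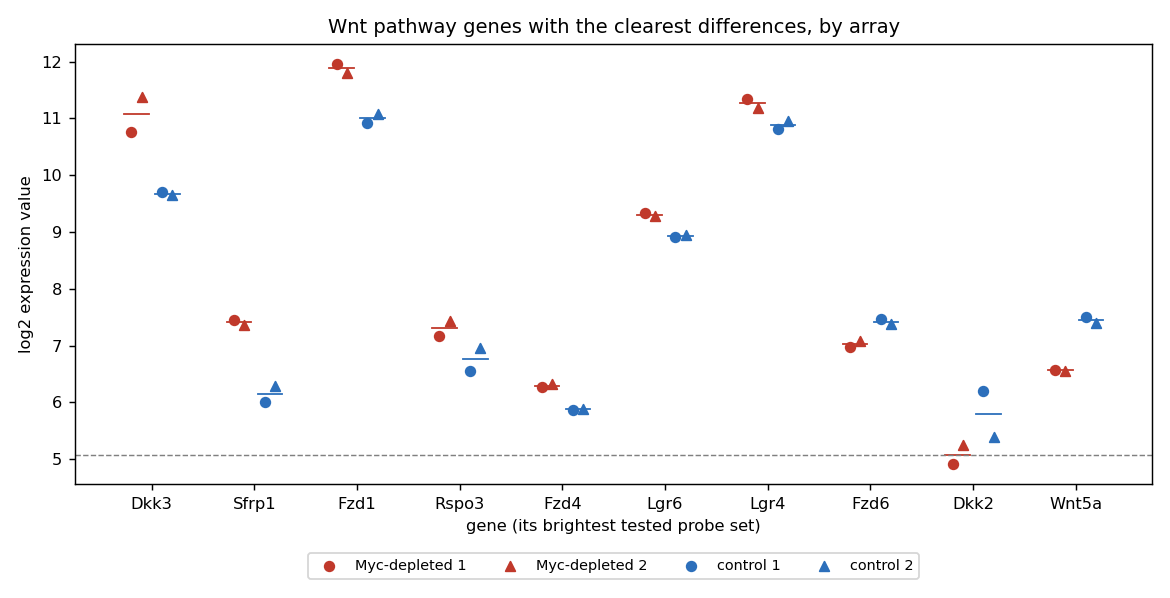
Log2 expression value of the 10 genes with an unadjusted p under 0.05 or with groups at least 0.5 apart that do not overlap, on each Myc-depleted (red) and control (blue) array, with group means as lines and the low-value threshold of 5.08 dashed. The 10 were picked from these same values, and their groups do not overlap, which holds for 47.5% of all genes tested. Sfrp1, for example, reads 7.45 and 7.37 in Myc-depleted BASCs against 6.01 and 6.29 in control BASCs.

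Of the receptors 11 were tested, and Fzd1 differed most. Fzd1, a Frizzled that can signal through beta-catenin, read 11.96 and 11.81 in Myc-depleted BASCs, against 10.92 and 11.08 in control BASCs. The difference was 0.88 (SE 0.13, 95% interval 0.51 to 1.25), 1.84-fold, with an unadjusted p of 0.00268 and an adjusted p of 0.308 in limma. Its second, dimmer probe set read 6.20 and 7.72 in Myc-depleted BASCs and 6.87 and 6.20 in control BASCs. That probe set was thus higher on Myc-depleted 2 and control 1, the arrays with the lower spike-in 3′ minus 5′ values, and its groups overlapped. Fzd4, the receptor for norrin as well as for Wnt ligands, read 6.27 and 6.32 in Myc-depleted BASCs, against 5.86 and 5.89 in control BASCs. It differed by 0.42 (SE 0.11, unadjusted p = 0.0194, adjusted p = 0.407 in limma), its second probe set by 0.42 and the other one, under the threshold, by 0.21. The groups did not overlap on any of the 3.

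Fzd6, which acts in planar cell polarity in skin and hair, lay on the other side. It read 6.97 and 7.08 in Myc-depleted BASCs, against 7.46 and 7.38 in control BASCs, a difference of -0.39 (SE 0.12, unadjusted p = 0.0285, adjusted p = 0.442 in limma). A dimmer tested probe set of Fzd6 differed by 0.10, with overlapping groups. Fzd5 read 7.94 and 8.01 in Myc-depleted BASCs, against 8.19 and 8.53 in control BASCs, and its second probe set differed by -0.32, again without overlap. Fzd3 differed by -0.16, -0.56 and -0.16 on its 3 tested probe sets.

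Of the remaining Frizzled genes, Fzd2, Fzd7 and Fzd8 read higher without overlap, by 0.29, 0.23 and 0.12. Fzd2 read 9.22 and 9.05 in Myc-depleted BASCs, against 8.83 and 8.85 in control BASCs, but its other 2 probe sets differed by -0.04 and -0.15 with overlapping groups. Fzd9 and Fzd10 differed by -0.06 and 0.01 with overlap. The co-receptor Lrp6 read 9.24 and 8.57 in Myc-depleted BASCs and 8.52 and 8.81 in control BASCs, a difference of 0.24 with overlap (95% interval -0.54 to 1.02), and its second probe set differed by -0.15. Fzd10os differed by 0.12 (5.77 and 5.74 in Myc-depleted, 5.51 and 5.76 in control BASCs).

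The secreted inhibitors held the 2 largest positive differences of the 41 genes, those of Dkk3 and Sfrp1, and with Dkk2 the next negative one after Wnt5a. Dkk3, a member of the Dickkopf family whose effect on Wnt signals varies between settings, read 10.77 and 11.38 in Myc-depleted BASCs, against 9.70 and 9.65 in control BASCs. The difference was 1.40 (SE 0.24, 95% interval 0.74 to 2.07), 2.65-fold, with an unadjusted p of 0.00423 and an adjusted p of 0.340 in limma. Its second probe set read 11.03 and 10.90 in Myc-depleted BASCs and 9.08 and 9.54 in control BASCs, a difference of 1.66 (SE 0.20, adjusted p = 0.263 in limma). The Myc-depleted arrays lay over both controls by more than 1 log2 unit on either probe set.

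Sfrp1, a Frizzled-related protein that binds Wnt ligands outside the cell, read 7.45 and 7.37 in Myc-depleted BASCs, against 6.01 and 6.29 in control BASCs. The difference was 1.26 (SE 0.15, 95% interval 0.84 to 1.68), 2.40-fold, with an unadjusted p of 0.00109 and an adjusted p of 0.263 in limma. Another probe set differed by 1.37, at 7.39 and 6.99 in Myc-depleted BASCs and 5.66 and 5.99 in control BASCs, and another by 0.63. The 2 remaining probe sets did not separate the groups. One read 5.77 and 6.27 in Myc-depleted BASCs and 5.93 and 5.75 in control BASCs, and the other, under the threshold, 4.02 and 4.88 in Myc-depleted BASCs and 4.06 and 3.87 in control BASCs. On both, Myc-depleted 2 was the highest array and control 1 the next.

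**Figure D3:**
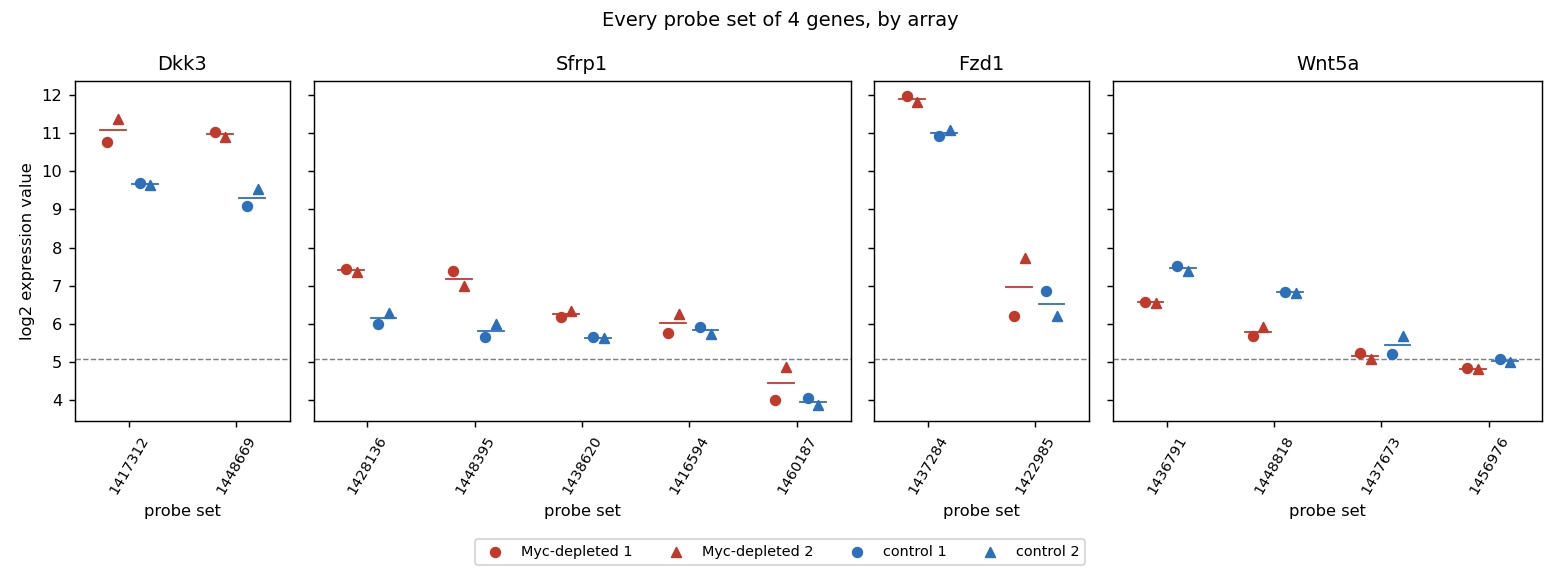
Log2 expression value of every probe set of Dkk3, Sfrp1, Fzd1 and Wnt5a on each Myc-depleted (red) and control (blue) array, with group means as lines and the low-value threshold of 5.08 dashed. The groups stand apart on the brightest probe set of each gene, while on the dimmer Fzd1 probe set Myc-depleted 2 at 7.72 and control 1 at 6.87 lie over the other arrays at 6.20.

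Sfrp2, a paralog of Sfrp1, was read at a high level on all arrays, 12.63 and 12.31 in Myc-depleted BASCs and 11.27 and 12.36 in control BASCs. Control 1 was the one low array, so the groups overlapped, and the difference of 0.65 had a 95% interval of -0.50 to 1.80. Frzb, the founding Frizzled-related protein, read 5.12 and 5.80 in Myc-depleted BASCs and 5.18 and 5.03 in control BASCs. Sfrp4 and Sfrp5 differed by 0.18 and 0.06 with overlap. Dkk2, which binds the Lrp co-receptors, was the one tested inhibitor on the lower side, at 4.91 and 5.24 in Myc-depleted BASCs, against 6.20 and 5.39 in control BASCs. Its groups did not overlap, but the difference of -0.72 (SE 0.33, unadjusted p = 0.0914, adjusted p = 0.570 in limma) varied with the controls, and its Myc-depleted mean of 5.07 lay under the low-value threshold. Without control 1 it was -0.32 and without control 2 it was -1.12.

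Wif1, a secreted protein that binds Wnt ligands directly and is well known from lung epithelium, averaged under the low-value threshold and so was not among the 41. It read 4.33 and 5.71 in Myc-depleted BASCs, against 3.74 and 3.58 in control BASCs. The groups did not overlap, but Myc-depleted 1 itself lay under the threshold. With no filter on low values the difference of 1.36 had an unadjusted p of 0.0442 and an adjusted p of 0.570 in limma.

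Of the R-spondins and their receptors 4 genes were tested, and the groups did not overlap for any of them, as for 47.5% of all genes tested. Lgr4, a receptor for R-spondins that is widely expressed, read 11.35 and 11.18 in Myc-depleted BASCs, against 10.82 and 10.96 in control BASCs, a difference of 0.37 (SE 0.13, unadjusted p = 0.0473, adjusted p = 0.491 in limma). Its other probe set, under the threshold, differed by 0.00. Lgr6, which marks stem cells of the hair follicle in mice, read 9.33 and 9.28 in Myc-depleted BASCs, against 8.91 and 8.95 in control BASCs. Its difference was 0.38 (SE 0.11, unadjusted p = 0.0270, adjusted p = 0.438 in limma), and its second probe set differed by 0.24 with overlapping groups.

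Rspo3, an R-spondin made by mesenchyme and endothelium, read 7.17 and 7.44 in Myc-depleted BASCs, against 6.55 and 6.96 in control BASCs. The difference was 0.55 (SE 0.20), and its 95% interval of -0.01 to 1.11 reached 0. Without control 1 it was 0.35. Rspo2, needed for limb and lung growth in mouse embryos, was the one lower gene of the set, at 6.34 and 6.42 in Myc-depleted BASCs, against 6.54 and 6.65 in control BASCs. Lgr5, the stem cell marker of the gut, averaged under the threshold on both of its probe sets.

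The 4 nuclear and feedback genes of this set, some of which report beta-catenin activity in many tissues, showed small differences at levels close to the threshold. Other genes reported as beta-catenin targets are read further below. Axin2, a scaffold of the destruction complex and a widely used reporter of the pathway, read 5.25 and 5.55 in Myc-depleted BASCs and 5.36 and 5.23 in control BASCs. Its difference of 0.11 had a 95% interval of -0.33 to 0.54. Lef1, a nuclear partner of beta-catenin, read 5.52 and 5.56 in Myc-depleted BASCs and 5.44 and 5.63 in control BASCs. Nkd1, which with Nkd2 binds Dishevelled, was read at 5.62 and 5.77 in Myc-depleted BASCs and 5.47 and 5.75 in control BASCs. Nkd2 differed by 0.16, with groups that did not overlap. At these levels a change in the pathway's output may not be detectable, and an interval of this width does not show that the genes did not change.

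**Figure D4:**
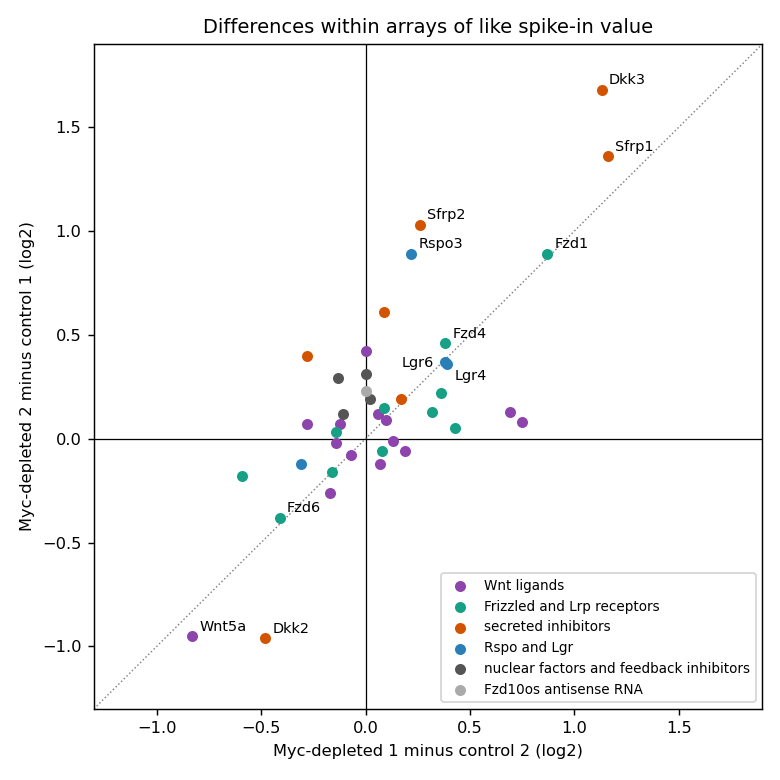
Difference of each of the 41 tested genes between Myc-depleted 1 and control 2 (x axis, log2), the arrays with the higher spike-in 3′ minus 5′ values, and between Myc-depleted 2 and control 1 (y axis, log2), those with the lower values, coloured by role, with the line of equal differences dotted. Fzd1 lies near that line at 0.87 and 0.89, whereas Rspo3 at 0.22 and 0.89 and Sfrp2 at 0.26 and 1.03 do not.

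Differences were also read between arrays alike in their spike-in value. For the genes picked from these same values the sign had to be the same in both comparisons, because their groups do not overlap. Between Myc-depleted 1 and control 2 and between Myc-depleted 2 and control 1, Wnt5a differed by -0.83 and -0.95, Sfrp1 by 1.16 and 1.36, Dkk3 by 1.13 and 1.68 and Fzd1 by 0.87 and 0.89. Fzd4 (0.38 and 0.46), Fzd6 (-0.41 and -0.38), Lgr6 (0.38 and 0.37) and Lgr4 (0.39 and 0.36) were close to equal in both. Dkk2, at -0.48 and -0.96, Rspo3, at 0.22 and 0.89, and Dkk3 were less so. Of the 41 genes 28 had the same sign in both comparisons. The share over all genes was not taken, so this count only describes the members.

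Other genes of the pathway were read from lists drawn up by function. Genes of Wnt secretion, the cell surface and other Wnt receptors had 7 of 24 tested genes with an unadjusted p under 0.05 in limma, 5 higher (20.8%, against 6.96% of all genes) and 2 lower (8.33%, against 5.23%), and a median difference of 0.16. Cthrc1, a secreted protein that strengthens Wnt binding to Frizzled and Ror2, differed by -1.80, at 4.57 and 4.65 in Myc-depleted BASCs and 6.58 and 6.24 in control BASCs. Both Myc-depleted values lay under the low-value threshold, so it was tested only through its control level. Ror1, a receptor for Wnt5a, read 9.17 and 9.22 in Myc-depleted BASCs, against 8.44 and 8.25 in control BASCs. Reck, a membrane protein that takes part in Wnt7 signals, differed by 0.93. The sulfatases Sulf1 and Sulf2, which trim the heparan sulfate that holds Wnt ligands, lay on opposite sides, at -0.85 and 0.92. The other tested probe sets of Sulf2 differed by -0.02 and 1.16, and that of Sulf1 by -0.65.

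Inside the cell and nucleus 3 of 34 genes had an unadjusted p under 0.05 in limma, all lower (8.82%, against 5.23% of all genes that were lower), with a median of 0.01. In either direction the share of all genes was 12.2%. They were the co-repressors Tle1 (-0.57) and Ctbp2 (-0.42) and the scaffold of beta-catenin destruction Apc (-0.36). Dact1, an antagonist of Dishevelled, differed by -0.62 and the nuclear factor Tcf7l1 by 0.28, both without overlap and with a p over that threshold. In the planar polarity branch 2 of 16 genes had such a p, Prickle2 (0.66) and Wdpcp (0.50), both higher, with a median of 0.05. That is 12.5% of the list, against 12.2% of all genes in either direction. The next by p, Prickle1, Scrib and Daam2, differed by 0.21, -0.26 and 0.30.

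Genes widely reported as beta-catenin targets were divided, with 4 of 27 higher (14.8%, against 6.96% of all genes) and 5 lower (18.5%, against 5.23%) at an unadjusted p under 0.05 in limma and a median of 0.11. Myc, the depleted gene, is one of the 5. Ccn4 and Ccn5, matricellular proteins first described as induced by Wnt1, lay on opposite sides. Ccn4 read 8.61 and 8.56 in Myc-depleted BASCs, against 9.68 and 9.91 in control BASCs, while Ccn5 read 11.94 and 12.02 in Myc-depleted BASCs, against 11.27 and 11.19 in control BASCs. The receptor tyrosine kinase Met differed by -0.77 and the ephrin receptor Ephb3 by 0.53. No gene of these 4 lists passed the adjusted threshold in limma, where the smallest adjusted p was 0.263.

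The 13 genes not tested averaged under log2 5.08 on each of their probe sets. They were the ligands Wnt2b, Wnt3, Wnt5b, Wnt8a and Wnt8b, the co-receptor Lrp5, the inhibitors Dkk1, Dkk4, Dkkl1 and Wif1, and Rspo1, Rspo4 and Lgr5. Apart from Wif1 the differences on their probe sets ran from -0.32 for a probe set of Wnt5b to 0.24 for one of Wnt8b. Of the 17 genes with several tested probe sets, 13 had differences of one sign and 4 did not, namely Fzd2, Fzd6, Lrp6 and Sfrp5.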

How the data were processed

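Messenger RNA of 2 Myc-depleted and 2 control BASC samples was measured on 1 array each. The authors deposited log2 values. They imported scanner files into Partek 6.4 and normalized them. Their methods name Robust Multichip Average and the submitters' processing notes GCRMA, and which of these made the values is unsettled, which matters most for low values. The 64 control probe sets of 45101 were left out. Probe sets with a mean over 4 arrays under the 40th percentile (log2 5.08) were not tested, leaving 27022 of 45037. Gene names came from the platform annotation (34945 probe sets with 1 symbol, 932 with several, 9160 with none); all 54 genes matched RefSeq by Entrez identifier. A gene was represented by its tested probe set with the highest mean that names it alone. Group was the only factor in limma 3.58.1 (R 4.3.3; lmFit, eBayes), with Benjamini-Hochberg adjustment over all probe sets tested, 2 residual and 2.02 prior degrees of freedom. The fit was tested on simulated data. The number of arrays limits the precision.

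Genes were named with values where an unadjusted p was under 0.05, or where groups at least 0.5 apart did not overlap, with the brightest gene of each role and up to 5 genes of each other list by p. The members, lists and rules were chosen with earlier results of these data known. Alternatives changed the filter on low values, how arrays were scaled, the test and its variance model, the probe set standing for a gene and the pairing, and each array was left out in turn. The replicate numbers do not pair the arrays: deviations of like-numbered arrays from their group means correlated at -0.77.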

Additional observations from a re-analysis of the deposited data

How the results depend on the processing

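The 10 genes named for their difference or p kept their sign in every alternative in which they were tested. They were picked from these same values and their groups do not overlap, so leaving out an array could not reverse a sign. With the mean of all tested probe sets Fzd6 differed by -0.15, Fzd1 by 0.65, Sfrp1 by 0.86 and Dkk3 by 1.53. In the main fit these were -0.39, 0.88, 1.26 and 1.40. No alternative other than the spike-in covariate brought one of the 10 past the adjusted threshold. With that covariate, chosen after seeing the data, 5 of the 41 genes passed, where 0 did otherwise, and 15 had an unadjusted p under 0.05 (36.6%, against 30.1% of all probe sets in that fit); adjusted p over all alternatives ran from 0.0043 to 1 for Dkk3 and from 0.046 to 1 for Fzd4. The count of 8 genes with an unadjusted p under 0.05 fell to 4 with the replicate number as a block, and ran from 4 (without control 1) to 7 with 1 array left out. With the replicate number as a block the 4 genes were 9.76% of the 41, against 3.73% of all probe sets. In the main fit the 8 genes were 19.5%, against 10.1% of all probe sets, so both shares fell with that block. These comparisons set genes, each read from its brightest probe set, against probe sets, which are unlike units. In the main fit the share over all genes tested was 12.2%, and in the alternatives it was not taken. The median difference of 0.10 became 0.27 with the stricter filter at the 60th percentile, which tests 16 of the genes. It ran from 0.06 (without control 1) to 0.18 (without control 2) with 1 array left out. Without Myc-depleted 2 it was 0.07. The crossed pairing of arrays as a block, also added after seeing the data, gave 11 genes with an unadjusted p under 0.05 (26.8%, against 20.9% of all probe sets) and 0 past the adjusted threshold, against 21 of all probe sets. Where 1 array is left out, the lone array is assumed to vary like the other group. Background light compresses differences of dim probe sets, and 23 of the 41 genes average within 1 log2 unit of the low-value threshold.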
